A study of Oryza sativa with 20 samples.

Results

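The 197 rarest detected miRNA tags of the rice leaf were examined in the lamina joint, which joins the sheath to the blade and sets the leaf's angle, and in the blade itself. A tag was taken as rare when it had at least 1 count in all libraries together and a mean below 10 CPM (a tag's counts scaled to a common library size by TMM factors) over the 20 libraries. These tags made up 40.7% of the 484 tags with any count, out of 685 tags listed, and a further 201 tags had no count. The mean CPM chose them, so their low level is a description and not a result.

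Small RNA was sequenced from the first complete leaf of Oryza sativa seedlings raised in water, with the lamina joint and the blade cut apart. Each tissue was sampled at 5 stages, S1 to S5, from organ formation to the setting of the leaf angle, with 2 libraries per tissue and stage. The labels give no treatment for any group. The cultivar and the number of plants per library are not stated in the labels, which do not tie stages to days. Nothing says that the replicates came from separate plants, so the p-values below reflect library-to-library spread that may be technical.

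MicroRNAs are cut from hairpin precursors by a Dicer-like enzyme and loaded into Argonaute proteins, which they guide to matching transcripts for cleavage or translational repression. In plant leaves the conserved families are usually abundant and target transcription factors of growth and polarity, while many lineage-specific miRNAs and the passenger strands of hairpins are sequenced only rarely. The files number the tags and do not pair them with miRNA names or sequences, so neither a family nor a role can be given to any tag, and tags are described by number, level, tissue and stage.

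The libraries held 194799 to 1169330 counts in all, and 1 count was worth between 1.21 and 6.30 CPM, with a median of 1.94. A tag with no count in a library can therefore have had a level of up to 3.63 CPM in the deepest library by effective size and up to 18.9 CPM in the shallowest, taking 3 counts as the limit that a count of 0 allows. Such limits, like the intervals below, reflect counting error alone, because reads copied by PCR do not stand for separate molecules. In bulk tissue, fewer cells that make a miRNA and less of it per cell cannot be told apart.

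Together the rare tags held 4611 of 10644688 counts, or 0.0433%. Of the 3940 values that 197 tags have in 20 libraries, 59.4% were 0, and 43.2% of the others were a single count. The highest value was 39 counts, and 36 tags reached 10 counts in any library. The median tag had 11 counts in all and was seen in 7 libraries. By contrast, 286 of the 287 more abundant tags were seen in 10 or more libraries, and 229 in all 20.

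The rare tags ranged from single sightings to tags seen nearly everywhere. Among them, 31 had 1 count in all libraries together, 65 had 2 to 9, 62 had 10 to 49, and 39 had 50 to 107. The 39 most counted tags supplied 59.9% of the rare counts and were seen in 7 to 20 libraries, with a median of 17. The tags with 10 to 49 counts supplied 33.1%, those with 2 to 9 counts 6.29% and the single sightings 0.672%. In all, 35 tags were seen in 1 library, 84 in 2 to 9, 75 in 10 to 19 and 3 in all 20. The 31 single counts were scattered over 14 libraries, with at most 4 in any of them.

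**Figure D1:**
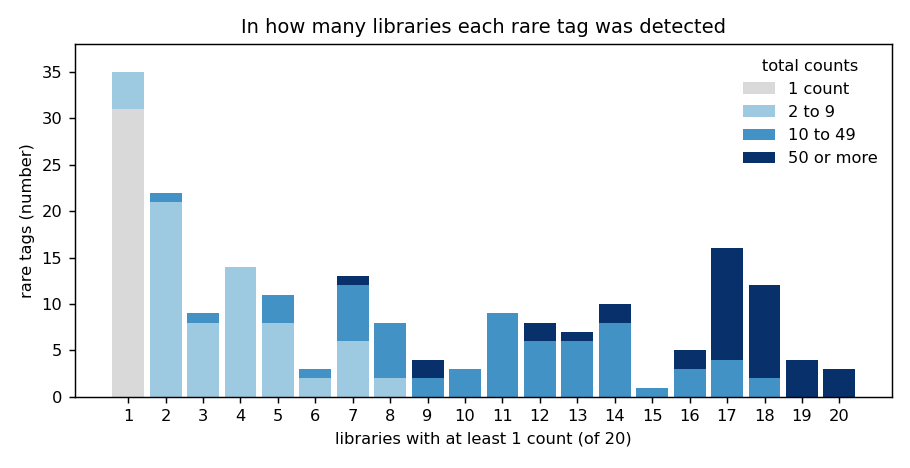
Number of rare tags (vertical axis) by the number of libraries, of 20, in which each had at least 1 count (horizontal axis), with bar colours for the total counts of a tag. The tallest bar holds the 35 tags seen in 1 library, and 3 tags were seen in all 20.

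The tissues shared most of the rare tags that had enough counts to be seen. The lamina joint held 171 of the 197 tags and the blade 176, with 150 in both, 21 only in the lamina joint and 26 only in the blade. None of the tags limited to a tissue had 10 counts: of the 47, 31 were single sightings and the other 16 had 2 to 9 counts. All 101 tags with 10 or more counts were present in both tissues. Over both tissues, 70 tags were seen at every stage and 38 at a single stage.

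The number of rare tags seen per library ran from 46 to 92, with a median of 86. In the lamina joint, replicates 1 and 2 had 85 and 70 tags at S1, 87 and 87 at S2, 81 and 90 at S3, 80 and 74 at S4, and 46 and 56 at S5. In the blade they had 87 and 81 at S1, 87 and 58 at S2, 87 and 92 at S3, 90 and 84 at S4, and 87 and 92 at S5. The lamina joint libraries of S5 thus stood lowest and did not overlap with the blade libraries of that stage, and at S4 the lamina joint was also lower without overlap. At the other stages the tissues overlapped. Depth moved with this difference: the lamina joint libraries of S5 had 198599 and 465886 counts in all, against 903865 and 1169330 in the blade.

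At equal library totals the tissues overlapped at S5. Each library was thinned, by its expected value, to the smallest total of 194799 counts, which gave 31.2 to 65.3 rare tags per library with a median of 51.4. At S5 the thinned numbers were 45.5 and 31.2 in the lamina joint and 39.2 and 36.6 in the blade, so the tissues overlapped there as at every other stage. Within each tissue the thinned numbers were lower at S5 than at S1 without overlap, 38.3 ± 10.1 against 57.9 ± 6.06 (SD, n = 2) in the lamina joint and 37.9 ± 1.85 against 55.2 ± 7.67 (SD, n = 2) in the blade. No p is given for sums over the rare tags, since they were chosen on these libraries.

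That difference between stages depended on the scaling. Thinning to equal effective size, the library total multiplied by its TMM factor, gave, in the lamina joint, 48.1 ± 9.27 tags for S1 and 41.0 ± 7.01 for S5 (mean ± SD, n = 2). In the blade it gave 46.5 ± 8.21 for S1 and 44.9 ± 1.82 for S5, and S1 and S5 libraries overlapped in both tissues. TMM factors were 1.26 and 1.04 in lamina joint S1 and 0.800 and 0.666 at S5, and in the blade 1.13 and 1.05 at S1 and 0.622 and 0.621 at S5.

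**Figure D2:**
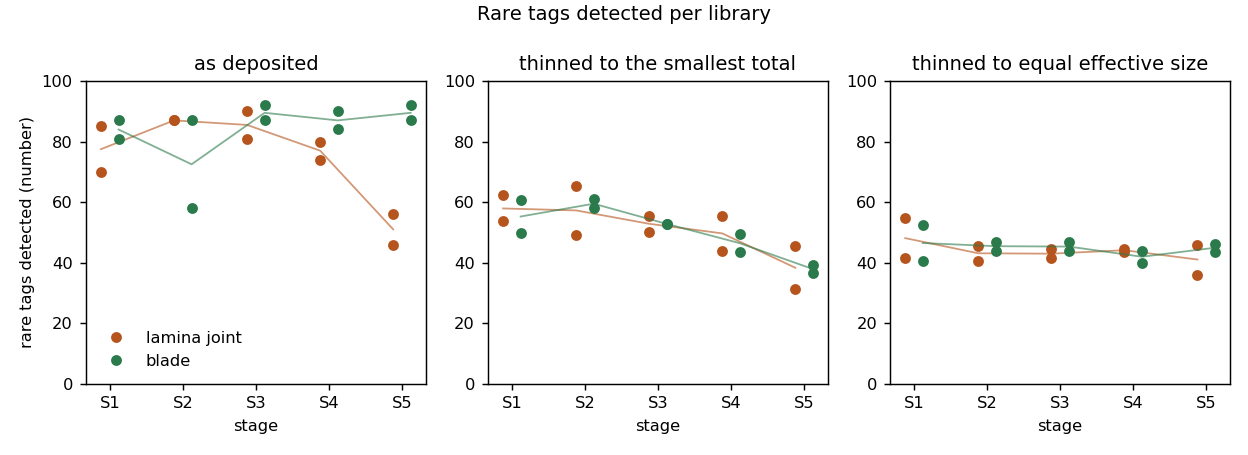
Rare tags with at least 1 count per library (vertical axis) by stage (horizontal axis), as deposited, thinned to the smallest total and thinned to equal effective size. Points are libraries and lines join group means of 2 libraries. As deposited, lamina joint S5 stands lowest at 46 and 56. After thinning to the smallest total both tissues are at their lowest mean at S5, and at equal effective size S1 and S5 overlap.

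The summed level of the rare tags depended on the scale in the same way. Their share of a library's counts was 0.0571% and 0.0753% in lamina joint S1 (exact 95% binomial intervals 0.0508 to 0.0640 and 0.0649 to 0.0869) and 0.0388% and 0.0215% at S5 (0.0306 to 0.0485 and 0.0175 to 0.0261). In the blade the share was 0.0442% and 0.0628% at S1 (0.0392 to 0.0496 and 0.0546 to 0.0718) and 0.0381% and 0.0292% at S5 (0.0341 to 0.0423 and 0.0262 to 0.0325). Group means were lower at each step from S1 to S5 in both tissues, and S1 and S5 did not overlap in either. The S5 mean was 0.455 of the S1 mean in the lamina joint and 0.629 of it in the blade.

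On the TMM scale the stages were not separated. In the lamina joint the summed level was 591 ± 193 CPM in S1 libraries and 403 ± 115 CPM in S5 libraries (mean ± SD, n = 2). In the blade it was 493 ± 145 CPM in S1 libraries and 541 ± 99.8 CPM in S5 libraries. S1 and S5 libraries overlapped in both tissues, and group means at S2, S3 and S4 lay between 408 and 434 CPM. Over all 299 tags tested, scaling by total counts set the median S5 minus S1 difference at -0.58 (log2) in the lamina joint and -0.94 in the blade, against 0.03 and -0.12 with TMM. The stage and tissue differences below are on the TMM scale. The tissues overlapped in the summed level at each stage on either scale.

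**Figure D3:**
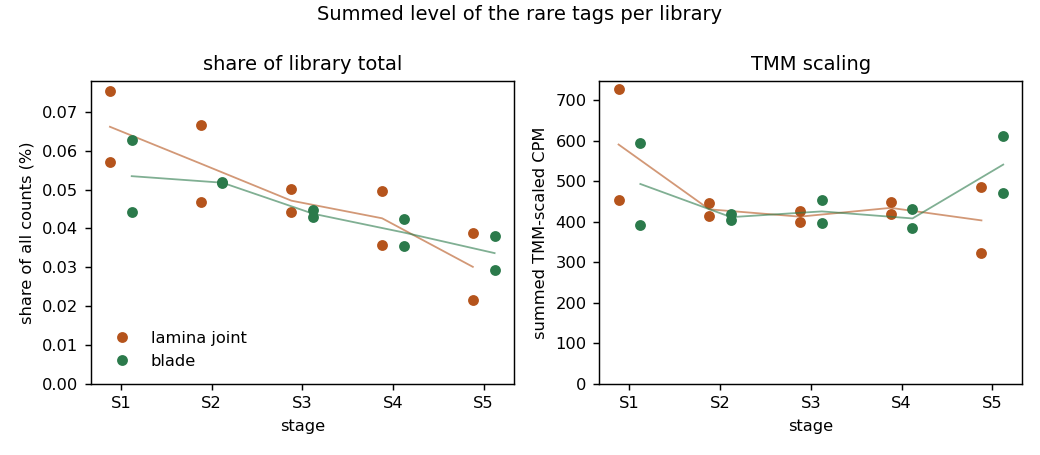
Summed level of the 197 rare tags per library by stage, as a share of all counts in percent (left) and as summed TMM-scaled CPM (right). Points are libraries and lines join group means of 2 libraries. The share is lowest at S5 in both tissues, while the TMM-scaled sum has overlapping S1 and S5 libraries.

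Replicate libraries were compared by a chi-square of their rare counts per degree of freedom, which counting error alone sets near 1. It lay between 0.913 and 1.33 in 7 of the groups, and at 1.53 in blade S5, 1.61 in blade S1 and 2.22 in lamina joint S1. Counts this low keep the measure near 1 even where libraries differ, so these values do not show that replicates were alike. Sightings were repeated in part: of the tags seen in the first replicate, between 52.2% (lamina joint S5) and 80.2% (lamina joint S3) were also seen in the second. Of those seen in the second replicate, between 42.9% (lamina joint S5) and 82.8% (blade S2) were seen in the first.

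The limit of 10 CPM cut through a continuous range of levels. Just inside it were tag_162 at a mean of 9.995 CPM and tag_423 at 9.86 CPM, and just outside were tag_410 at 10.2 CPM and tag_181 at 10.9 CPM. Tag_423 and tag_162 also had the most counts, 107 and 106. Among the 39 tags with 50 or more counts, the group with the highest mean held a median of 20.4% of the CPM summed over the 10 group means, and between 14.4% and 81.9%.

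Among these 39 tags, tag_162 had the most even course, taken as the lowest share in its highest group. In the lamina joint its replicates had 8 and 3 counts at S1, 2 and 12 at S2, 6 and 6 at S3, 2 and 2 at S4, and 2 and 5 at S5. In the blade they had 11 and 3 at S1, 4 and 1 at S2, 8 and 6 at S3, 6 and 3 at S4, and 6 and 10 at S5. It was present in every library, between 3.82 and 16.1 CPM, with group means from 4.81 to 14.3 CPM. Tag_144, the next most even of the 39 by that share, was seen in 17 libraries and reached at most 12.7 CPM. That share does not register a group with no count, and tag_144 was not level. It had 0 and 0 counts in blade S5 against 7 and 2 in blade S1, and 0 and 1 in lamina joint S5 against 4 and 2 in S1. Neither tag passed the filter on low counts.

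At the other end of the 39, tag_218 had 81.9% of its CPM in lamina joint S1 and tag_372 64.7% in blade S5. Tag_372 had 39 and 5 counts in blade S5, at most 4 counts in any other library and none in either tissue at S1 or S2. Its blade S5 level was therefore 69.4 CPM in the first replicate and 6.88 CPM in the second, so that a single library carried most of its signal. It did not pass the filter either. Tag_218 is described with the tests.

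Only 12 of the 197 tags passed the filter on low counts (10 counts scaled to the median library in at least 2 libraries, and 15 in all), and these had 32 to 97 counts in total. A further 47 rare tags had 32 counts or more and did not pass. A tag of low mean can pass only through libraries in which it is high. The counts of calls and the median differences among the 12 therefore describe those tags and say nothing about rare tags as a class. The same holds for the p-values and leave-out fits of single tags below. Fits without a filter are given beside the filtered ones, since a tag could enter them without being high anywhere. The tags named with them were first called by a filtered fit, so a p without a filter is not separate support. The edgeR fit without a filter also called a tag whose 13 lamina joint counts all came from 1 library (stages of the lamina joint, edgeR adjusted p = 0.001). All 299 tags that passed were tested with the quasi-likelihood method of edgeR, with Benjamini-Hochberg adjustment and a threshold of 0.05.

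Stages of the lamina joint differed for 4 of the 12 tags, where 54.2% of all tags tested did. These were tag_309 (edgeR adjusted p = 0.00307), tag_218 (0.00564), tag_020 (0.015) and tag_028 (0.0288). Between S5 and S1, 3 of the 12 passed, 1 higher and 2 lower at S5, where 44.8% of all tags tested passed, 22.4% higher and 22.4% lower. When the first lamina joint library of S1, S2 or S5 was left out, fewer tags passed, both among the 12 and among all 299. Without a filter the median fitted difference was 0 over all 197 rare tags, including those with no count at either stage, and 0 over all 484. Over the 12 tags it was -2.20 (log2), against 0.03 over all 299. The 12 entered through libraries in which they were high, which can shift their median. Fitted values of tags with no count in a group are not bounded, and the median of the 10 tags with a measurable ratio was -0.90 (log2) when a group with no count, as in 6 of them, was set to the floor of 3 counts.

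Tag_309 appeared late in the lamina joint. Its replicates had 0 and 0 counts at S1, 0 and 0 at S2, 2 and 0 at S3, 9 and 16 at S4, and 6 and 4 at S5. All S4 and S5 libraries lay above all earlier ones, at 12.9 to 40.6 CPM against at most 4.08 CPM. Set against a floor of 3 counts over both S1 libraries, S5 was at least 6.44-fold higher, and with the counting error of both groups the exact 95% interval of the ratio began at 4.33 (edgeR adjusted p = 0.0113). The tag passed the filter through the second S4 and the first S5 library of the lamina joint, and its edgeR adjusted p without a filter was 0.00129. The call was lost without the first S1 library (edgeR adjusted p = 0.087) and without the first S5 library (0.0548), and held under the 9 settings that kept all libraries (0.00129 to 0.0306).

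Tag_218 was highest in lamina joint S1. Its replicates had 36 and 8 counts at S1, 0 and 6 at S2, 1 and 1 at S3, 1 and 1 at S4, and 0 and 0 at S5. Both S1 libraries, at 55.4 and 31.1 CPM, lay above every later library, where the highest was 7.66 CPM. S5 was at least 7.59-fold lower than S1 against the same floor, and with the counting error of both groups the ratio of S5 to S1 could be up to 0.169 (edgeR adjusted p = 0.00918). The tag passed the filter only through the S1 libraries in which it was high, and its edgeR adjusted p without a filter was 0.000918. The adjusted p was 0.0716 without the second S5 library and 0.0663 with DESeq2 without a filter.

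Tag_028 was present from S1 to S3 in the lamina joint and nearly gone afterwards. Its replicates had 9 and 4 counts at S1, 10 and 14 at S2, 7 and 6 at S3, 1 and 0 at S4, and 0 and 0 at S5. The early libraries, at 7.83 to 19.1 CPM, did not overlap with those of S4 and S5, at 0 to 2.27 CPM. Taken at the floor, S5 was at least 2.24-fold lower than S1, and with the counting error of both groups the ratio could be up to 0.634 (edgeR adjusted p = 0.0307, and 0.0334 without a filter). The tag entered the filtered tests of both tissues only through the 2 lamina joint S2 libraries, where it was highest. The call was lost without either S1 or either S5 library of the lamina joint or without the first S2 library (edgeR adjusted p 0.0509 to 0.169), and with DESeq2 without a filter (0.0639).

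In the blade, 4 of the 12 tags differed between stages, where 43.5% of all tags tested did: tag_656 (edgeR adjusted p = 0.00343), tag_020 (0.0166), tag_309 (0.026) and tag_176 (0.0261). When any 1 of the S1 or S5 blade libraries was left out, fewer tags passed, both among the 12 and among all 299. Between S5 and S1, 6 of the 12 passed, 3 higher and 3 lower at S5, where 49.5% of all tags tested passed, 25.8% higher and 23.7% lower. Fewer passed, again among the 12 and among all 299, when any 1 of the S1 or S5 blade libraries was left out. Without a filter the median fitted difference was 0 over all 197 rare tags, including those with no count at either stage, and 0 over all 484. Over the 12 tags, chosen by the filter as above, it was -1.59 (log2), against -0.12 over all 299. Fitted values of tags with no count in a group are not bounded, and the median of the 11 tags with a measurable ratio was -1.26 (log2) when a group with no count, as in 4 of them, was set to the floor of 3 counts.

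Tag_656 was a tag of S5. In the blade its replicates had 0 and 0 counts at S1, S2 and S3, 1 and 1 at S4, and 21 and 16 at S5. Both S5 libraries, at 37.3 and 22.0 CPM, lay far above the S4 libraries at 1.21 and 1.95 CPM. Against the floor, S5 was at least 10.3-fold higher than S1, and with the counting error of both groups the interval of the ratio began at 7.99 (edgeR adjusted p = 0.00449). The tag passed the filter only through S5 libraries, the first of each tissue. Without a filter the adjusted p was 0.000289 with edgeR and 0.0584 with DESeq2. With the filter DESeq2 gave 0.0227. Of the 9 settings that kept all libraries, only DESeq2 without a filter lost the call. With any 1 library left out and the same tags tested, the edgeR adjusted p was 0.00322 to 0.0377. In the lamina joint its counts were 4 and 1 at S5 and 2 over the 8 earlier libraries, and the S5 libraries, at 25.2 and 3.22 CPM, both lay above the earlier ones, but the S5 minus S1 difference did not pass there.

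Tag_309 was higher at S5 in the blade as well. Its blade replicates had 0 and 0 counts at S1, 1 and 0 at S2, 1 and 1 at S3, 1 and 1 at S4, and 15 and 6 at S5. Against the floor, S5 was at least 5.86-fold above S1, with the interval of the ratio from 4.36 (edgeR adjusted p = 0.00982, and 0.000894 without a filter). The call was lost without the first blade S1 library (edgeR adjusted p = 0.0753) and without the first blade S5 library (0.0582). At S4 the lamina joint had 20.5 and 40.6 CPM of tag_309 and the blade 1.21 and 1.95 CPM, without overlap, while at S5 the tissues overlapped, at 37.8 and 12.9 CPM against 26.7 and 8.26 CPM. The test of tissue by stage did not pass for this tag (edgeR adjusted p = 0.327).

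Tag_028 and tag_020 were lower at S5 in the blade. Tag_028 had 3 and 6 counts at S1, 3 and 1 at S2, 1 and 0 at S3, 2 and 0 at S4, and 0 and 1 at S5. Its S5 to S1 ratio was 0.0931 (exact 95% counting interval 0.00212 to 0.672; edgeR adjusted p = 0.0413). This call was close to the threshold: it was lost with DESeq2 (0.0826), with DESeq2 without a filter (0.113), without the second S1, either S2 or either S5 blade library, and without the second lamina joint S2 library (0.0514 to 0.213).

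Tag_020 had 14 and 4 counts in blade S1, 5 and 3 at S2, 3 and 1 at S3, 1 and 0 at S4, and 1 and 4 at S5. Its ratio of S5 to S1 was 0.233 (exact 95% counting interval 0.0675 to 0.650; edgeR adjusted p = 0.0374). The tag passed the filter only through the first S1 library of each tissue. The call was lost without the first S1 library (0.316), without the first S5 library (0.195), without a filter (0.0952), with DESeq2 (0.123) and with DESeq2 without a filter (0.180). In the lamina joint the same tag had 13 and 3 counts at S1, 5 and 13 at S2, 3 and 7 at S3, 0 and 0 at S4, and 1 and 1 at S5. In both tissues its lowest mean was at S4, not at S5.

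**Figure D4:**
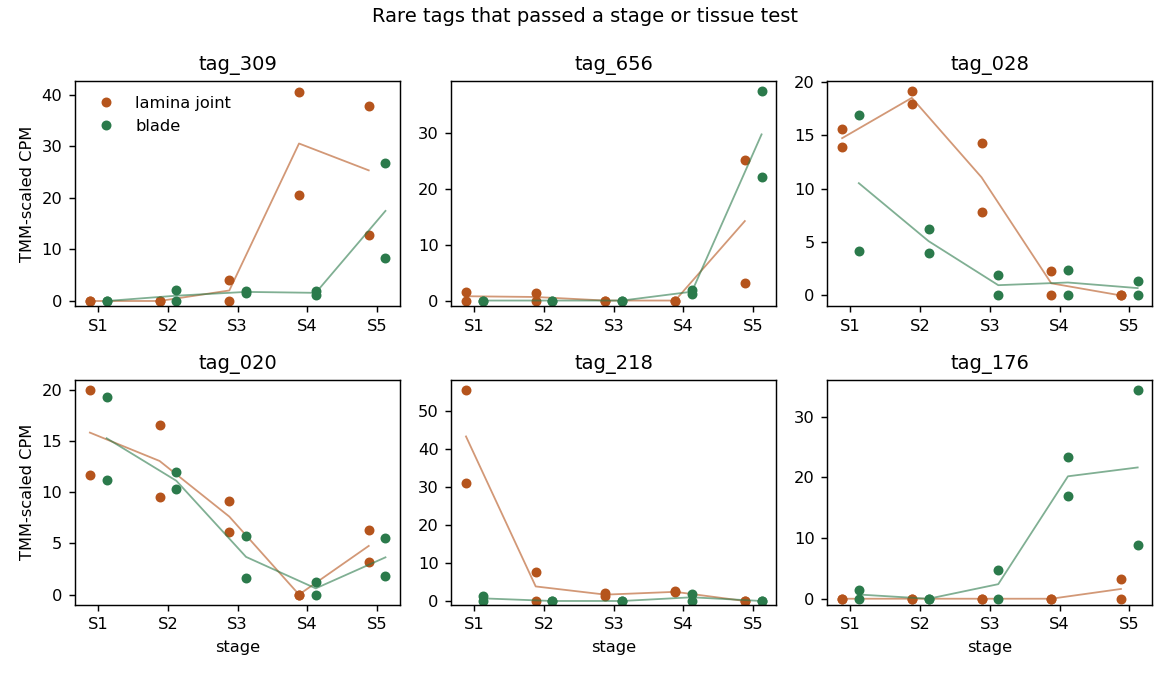
TMM-scaled CPM of 6 rare tags (vertical axis, a scale per panel) by stage in the lamina joint and the blade. Points are libraries and lines join group means of 2 libraries. Tag_309 and tag_656 are highest late, tag_028 and tag_020 early, tag_218 in lamina joint S1 and tag_176 in blade S4 and S5.

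Between the tissues, 0 of the 12 tags passed in the difference of lamina joint and blade averaged over stages, with 0 at an unadjusted p under 0.05, where 26.4% of all tags tested passed, 10% higher and 16.4% lower in the lamina joint. Without a filter the count was 0 of 197 as well, with 2 at an unadjusted p under 0.05, where 17.1% of all tags passed, 6.61% higher and 10.5% lower. This test is uninformative for most of the 12, because 9 of them had no count in at least 1 of the 10 groups and the logarithm of that group's mean is then unbounded. DESeq2 called 1 of the 12, with 28.8% of all tags tested, and limma with voom 3, with 29.8%. An additive model with a tissue and a stage term, chosen after seeing the data, does not have that fault and called 2 of the 12, 1 higher and 1 lower in the lamina joint, where 23.7% of all tags tested passed, 10.4% higher and 13.4% lower. The same model fitted to all 484 tags without a filter again called 2 of the 197, 1 in each direction, where 13% of all tags passed, 5.99% higher and 7.02% lower.

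The tag called higher in the lamina joint was tag_218, with 54 counts there and 2 in the blade. Its blade counts were 1 in the first S1 library and 1 in the second S4 library. It passed the filter only through the lamina joint S1 libraries, so it entered the test by being high in 1 tissue. In the additive model it was 3.88 ± 0.73 higher (log2, SE; edgeR adjusted p = 0.00199, and 0.000588 without a filter), and between 3.29 and 4.56 higher when any 1 library was left out (edgeR adjusted p 0.000487 to 0.0131). Most of that difference lay at S1, where the lamina joint libraries had 36 and 8 counts.

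The tag called lower in the lamina joint was tag_176, with 1 count there, in the second S5 library, and 60 in the blade. In the blade its replicates had 1 and 0 counts at S1, 0 and 0 at S2, 0 and 3 at S3, 14 and 12 at S4, and 5 and 25 at S5. It passed the filter only through the second blade libraries of S4 and S5, where it was high. In the additive model the lamina joint lay at -3.86 ± 0.72 against the blade (log2, SE; edgeR adjusted p = 0.00199, and 0.000624 without a filter), and between -4.53 and -3.51 when any 1 library was left out (edgeR adjusted p 0.000791 to 0.0218). Blade S4 and S5, at 8.89 to 34.4 CPM, did not overlap with the lamina joint libraries of those stages, at 0 to 3.22 CPM.

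Rare tags with more counts were not all on the side of 1 tissue. Of the 101 tags with 10 or more counts, 46 had the higher mean CPM in the lamina joint and 55 in the blade, and the median log2 ratio (CPM + 0.5) was -0.06, as it was for the 287 more abundant tags. Their quartiles were -0.52 and 0.43.

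The stage at which the 101 tags were highest was spread over the series. In the lamina joint 22 had their highest mean at S1, 18 at S2, 17 at S3, 21 at S4 and 23 at S5. The more abundant tags were spread there as well, with 20.2%, 21.6%, 10.8%, 26.1% and 21.3% highest at S1 to S5. In the blade 29 were highest at S1, 20 at S2, 18 at S3, 14 at S4 and 20 at S5, while among the more abundant tags 33.4% were highest in blade S1 and 35.2% in blade S5. S5 was above S1 for 43 of the 101 tags in the lamina joint and below it for 51, and in the blade for 49 and 50. Among the more abundant tags it was above for 52.6% and below for 47.4% in the lamina joint. In the blade these shares were 48.1% and 51.9%.

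The test of tissue by stage, which asks whether the course over stages differs between the tissues, passed for none of the 12 tags (edgeR, 0 calls, 1 at an unadjusted p under 0.05), where 2.01% of all tags tested did. DESeq2 also called 0 of the 12, where it called 13% of all tags tested, and limma with voom 0, where it called 3.68%. The edgeR fit without a filter called 0 of the 197, with 10.7% of all tags called and 3 rare tags at an unadjusted p under 0.05.

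When all 197 rare tags entered the test without a filter, edgeR called more than with it, and how many were called depended on the tool. edgeR called 13 and 11 for differences between stages, in lamina joint and blade, and 4 and 15 for S5 minus S1, in the same order. The shares of all 484 tags called were 36%, 32.2%, 26.9% and 33.3%. DESeq2 without a filter called 3, 1, 1 and 5, where it called 33.1%, 27.7%, 27.3% and 30.2% of all 484 tags. With the filter DESeq2 called 4, 3, 4 and 3 of the 12, where it called 56.2%, 47.5%, 46.5% and 51.5% of all tags tested. Of the edgeR calls for S5 minus S1, 9 of 15 were higher at S5 in the blade and 1 of 4 in the lamina joint, where 18% and 14.5% of all tags were called higher and 15.3% and 12.4% lower.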

How the data were processed

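Members and lists were chosen with earlier results of these data known. The deposited values are raw whole-number counts of miRNA tags, in 1 file per sample. The submitters' processing notes name CASAVA and IRGSP-1.0. How reads were aligned, annotated and counted, and what was done with reads matching several miRNAs, is not given in the sources used here. Near-identical miRNAs may share or divide reads.

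Groups and replicate numbers came from sample titles. CPM were computed with TMM factors from the 484 tags with any count. Tests used edgeR 4.0.16 in R 4.3.3 (filterByExpr, minimum count 10, minimum total 15; glmQLFit with a mean for each of 10 groups, 10 residual degrees of freedom; two-sided). DESeq2 1.42.0 and limma 3.58.1 with voom were alternatives. Fits left out 1 library at a time with the same 299 tags. Thinned numbers are hypergeometric expectations. Ratios use summed counts over effective library sizes with exact 95% binomial intervals. Figures used matplotlib 3.10.9 in Python 3.11.15. Fits and thinning were tested on simulated data, with no result given here. No statement about the rare tags rests on that test.

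Tags named are, per contrast, up to 2 per direction with the largest change among called members with 10 or more counts, the 2 with the smallest p per F test, those nearest the limit, and the most counted, most concentrated and most even. Where 5 or fewer were called, the others were named after their values were seen.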

Additional observations from a re-analysis of the deposited data

How the results depend on the processing

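The number of rare tags was 101 when 10 or more counts were required, and 190 to 196 without any single library. The median number seen per library was 51.4 thinned to the smallest total, 44.0 thinned to equal effective size (chosen after seeing the data) and 48.5 with at least 2 counts. Without a filter the calls were 13 for stages in the lamina joint, 11 for stages in the blade and 15 for S5 minus S1 in the blade. DESeq2 gave 3 for the last (51.5% of all tags tested were called), and without a filter, a setting chosen after seeing the data, 1 for stages in the blade and 1 for the lamina joint at S5 against S1. Scaling by total counts gave 6 for that contrast (49.2% of all tags). Averaged over stages, the tissues differed for 1 rare tag with DESeq2, 3 with limma and voom, and 2 with either additive fit, both chosen after seeing the data. The cause of these changes was not tested, apart from the numbers of tags entering and the groups with no count given above. Leaving out a single library leaves 1 library in its group, so the counts of calls from those fits are not given. For stages and for S5 minus S1, in both tissues, these counts changed among the rare tags and among all tags tested. For tissue and for tissue by stage only the counts over all tags changed. With the replicate number as a block the calls were 5 for stages in the lamina joint, 5 in the blade, 4 and 8 for S5 minus S1, and 0 for tissue and for tissue by stage, where 53.8%, 41.8%, 43.8%, 49.5%, 26.1% and 2.68% of all tags were called. The numbers were not taken to pair the libraries, since same-numbered deviations did not correlate above 0.1 in every pair of groups: they did in 13 of 45 over the tested tags (-0.26 to 0.56) and in 12 of 45 over the rare tags (-0.24 to 0.46). Mean correlations with the other groups were positive in 6 of 10 and 9 of 10 groups, and the highest pair of the tested tags, 0.56, was S1 of both tissues. For S5 of both tissues it was 0.06. Most of the 45 pairs cross stages, so this rule cannot tell whether the tissues were paired within a stage. No fit paired them within a stage. None of the named S5 minus S1 differences reversed in any fit. Counting tags with identical counts once, 18 fewer, and DESeq2 size factors left each count of calls within 1.5 times. Depth limits every value here, since most are 0 or 1 count.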

Other observations

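The replicates of S1 differed in some of the same rare tags in both tissues, a pattern noticed in the values and not tested, and the tags named here were chosen after their values were seen. Tag_590 had 2 and 21 counts in replicates 1 and 2 of lamina joint S1 and 0 and 15 in blade S1, and at most 4 counts in any other library. Tag_072 had 0 and 9 counts in lamina joint S1 and 1 and 16 in blade S1, and at most 2 elsewhere. Of the rare tags with 5 or more counts in the second S1 replicate and at least 4 times the CPM of the first, there were 6 in the lamina joint and 5 in the blade, and these 2 tags were in both lists (33.3% and 40% of them). The lists of tags higher in the first S1 replicate held 5 tags in each tissue and shared 1. The differences between the S1 replicates, taken across rare tags on the log2 CPM scale, had a correlation of 0.456 between the tissues. It was 0.079 at S5. The S1 value was the highest of all 45 pairs of groups, whose median was 0.03, and the values within S2, S3 and S4 are not given here. The tags share a library's depth and scaling factor, so this is a description. The summed TMM-scaled level was also higher in the second replicate at S1, 727 against 454 CPM in the lamina joint and 596 against 391 CPM in the blade. The second replicates were the shallower ones, with 248416 against 516624 and 337724 against 640801 counts in all. Whether depth had a part in this was not tested.

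The position of a tag in the numbered list went with its rarity, although the files do not say how the numbers were given. Of the first 171 tags, 11.7% were rare and none was without a count. Of the last 172, 38.4% were rare and 51.2% had no count in any library. Of the 197 rare tags, 29 had the same counts as another tag in all 20 libraries, in 11 sets, and these sets held 1 count per tag except 1 set with 2. Tags with 1 count match whenever that count falls in the same library. Whether reads shared between tags had a part in these sets was not tested.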
